A study of Mus musculus with 7 samples.

Results

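The SOCS, CISH and STAT target genes were examined in tibialis anterior (TA) muscle, a fast muscle of the lower leg, by RNA sequencing of mir-486 KO and WT mice. The set held 10 genes of 48795 in the count table, found by Ensembl gene ID: Cish, Socs1, Socs2, Socs3, Pim1, Pim3, Bcl6, Stat3, Stat5a and Stat5b. These genes were selected on earlier results of the same KO against WT contrast, so their values and fold changes are a description and carry no test. There were 4 mir-486 KO libraries (genotype miR-486-/-, strain FVB N/J by the labels) and 3 WT libraries (genotype wildtype, strain C57BL/6 by the labels), all from mice 6 months old with no treatment given, and male by the methods of the study. In the KO, CRISPR editing removed the hairpin of miR-486, a microRNA enriched in muscle, from an intron of Ank1 as a germline deletion. The methods state that the line was first kept on FVB/NJ, was later backcrossed to C57BL/6J, and was compared on a shared background, whereas the labels give each genotype its own strain. The count columns of the WT libraries nevertheless have FVB in their names, the strain that the labels give to the KO. The sources thus disagree on the strain of the WT mice, and any strain difference and genotype cannot be told apart here. Whether each library came from its own animal is not stated in the labels, and p-values then cover only the spread between libraries.

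Cytokines and growth hormone act through receptors that have no kinase of their own and rely on bound Janus kinases (JAK). The activated JAK phosphorylates STAT proteins, which pair, enter the nucleus and bind sites spelled TTC and GAA around a short spacer. Among the genes switched on are CISH and the SOCS proteins, which bind the receptor or the JAK and shut the pathway off again, so that their mRNA is often read as a trace of recent STAT activity. In skeletal muscle the main routes are growth hormone through JAK2 and STAT5b, which feeds Igf1, and the interleukin-6 family through the shared receptor gp130 and STAT3. BCL6 is a repressor that recognises DNA much like the STAT sites, and PIM kinases are short-lived kinases made on cytokine signals.

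The libraries held between 23839577 and 26302079 gene counts in KO muscle and between 26365928 and 28168275 in WT muscle. WT 3 stood apart, since the first principal component of log2 CPM (read counts scaled to library size with TMM factors) took 53.9% of the variance and separated that library from the other 6, and its mitochondrial share was 22.4%, against 15.8% to 17.9% in KO libraries and 13.0% to 13.3% in the other WT libraries. All 7 muscle fibre markers were detected, with a summed level of 112132 to 132410 CPM in KO and 119004 to 141087 CPM in WT muscle, and none of the 7 passed the test. Mir486 itself had 0 reads in each KO library and 1, 1 and 0 reads in WT libraries, too few to check the genotype, and the exons of Ank1 lie outside the deleted part and check nothing. Each result below that rests on WT 3 is given with and without it.

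Promoter sequence was set out first for the genes whose windows hold a STAT-type site, because such sites are how STAT proteins reach their targets. RefSeq promoter windows (GRCm38.p6) of 300 bases, from 250 before to 50 after each start site, were found for 9 of the 10 genes, in 13 windows, and not for Socs2. The motif TTCNNNGAA, which reads the same on both strands, was found at 7 places in 4 windows of 3 genes: Cish, Socs3 and Bcl6. Motif matches are in capitals.
Cish, chr9:107296409-107296708, plus strand: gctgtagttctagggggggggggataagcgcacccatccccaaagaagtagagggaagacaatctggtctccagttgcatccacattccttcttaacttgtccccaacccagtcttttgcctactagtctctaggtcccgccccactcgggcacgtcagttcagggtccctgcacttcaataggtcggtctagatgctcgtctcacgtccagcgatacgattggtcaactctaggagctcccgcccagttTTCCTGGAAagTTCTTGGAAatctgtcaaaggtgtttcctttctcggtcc
Socs3, chr11:117969317-117969616, minus strand: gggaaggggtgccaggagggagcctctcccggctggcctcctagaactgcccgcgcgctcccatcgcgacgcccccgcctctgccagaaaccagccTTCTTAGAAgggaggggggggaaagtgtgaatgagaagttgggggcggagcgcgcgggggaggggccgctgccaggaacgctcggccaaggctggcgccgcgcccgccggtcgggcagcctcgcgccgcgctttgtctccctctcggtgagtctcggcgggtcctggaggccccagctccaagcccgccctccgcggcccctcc
Bcl6, upstream start, chr16:23988803-23989102, minus strand: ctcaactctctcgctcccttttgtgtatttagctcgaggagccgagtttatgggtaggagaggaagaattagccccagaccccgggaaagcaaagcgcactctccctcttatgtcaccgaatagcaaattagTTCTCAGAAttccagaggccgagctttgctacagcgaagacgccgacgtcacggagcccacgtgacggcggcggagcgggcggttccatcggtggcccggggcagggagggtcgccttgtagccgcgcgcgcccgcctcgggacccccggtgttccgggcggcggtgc
Bcl6, downstream start, chr16:23981234-23981533, minus strand: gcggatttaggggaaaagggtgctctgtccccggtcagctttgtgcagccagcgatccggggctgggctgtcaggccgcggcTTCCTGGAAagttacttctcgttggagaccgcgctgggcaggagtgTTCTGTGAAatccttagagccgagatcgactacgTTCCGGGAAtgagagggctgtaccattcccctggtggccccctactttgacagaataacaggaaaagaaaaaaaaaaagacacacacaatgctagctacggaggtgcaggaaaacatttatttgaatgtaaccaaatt

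The Cish window carried TTCCTGGAA and TTCTTGGAA, with first bases 0 and 11 bases from the start site, so that only a pair of bases lay between them. In Socs3 the match was TTCTTAGAA at -154. Bcl6 had TTCTCAGAA at -118 of its upstream start and TTCCTGGAA, TTCTGTGAA and TTCCGGGAA at -168, -122 and -88 of its downstream start. Of all 32851 windows in the table, 8.30% held at least 1 match, 0.457% held at least 2 as Cish did, and 0.0335%, which is 11 windows, held at least 3 as the downstream Bcl6 window did. A match is only a match of letters, and a window without it leaves the rest of the gene unread. The 3 genes with a match did not share a direction, since Cish and Socs3 were lower in KO muscle and Bcl6 was higher. Over all tested genes with a match (851), 0.940% were called higher and 1.65% lower in KO muscle, against 0.999% and 1.79% of the 9506 matched genes without it.

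Within the set, the feedback inhibitors Cish, Socs1, Socs2 and Socs3 were low in all 4 KO libraries and high in WT 1 and WT 3, while WT 2 lay close to the KO libraries. Pim3 and Bcl6 ran the other way and were higher in every KO library than in any WT library. The groups overlapped for Stat3 and Stat5a. As all values come from whole muscle, fewer cells of a type and less RNA per cell cannot be told apart.

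**Figure D1:**
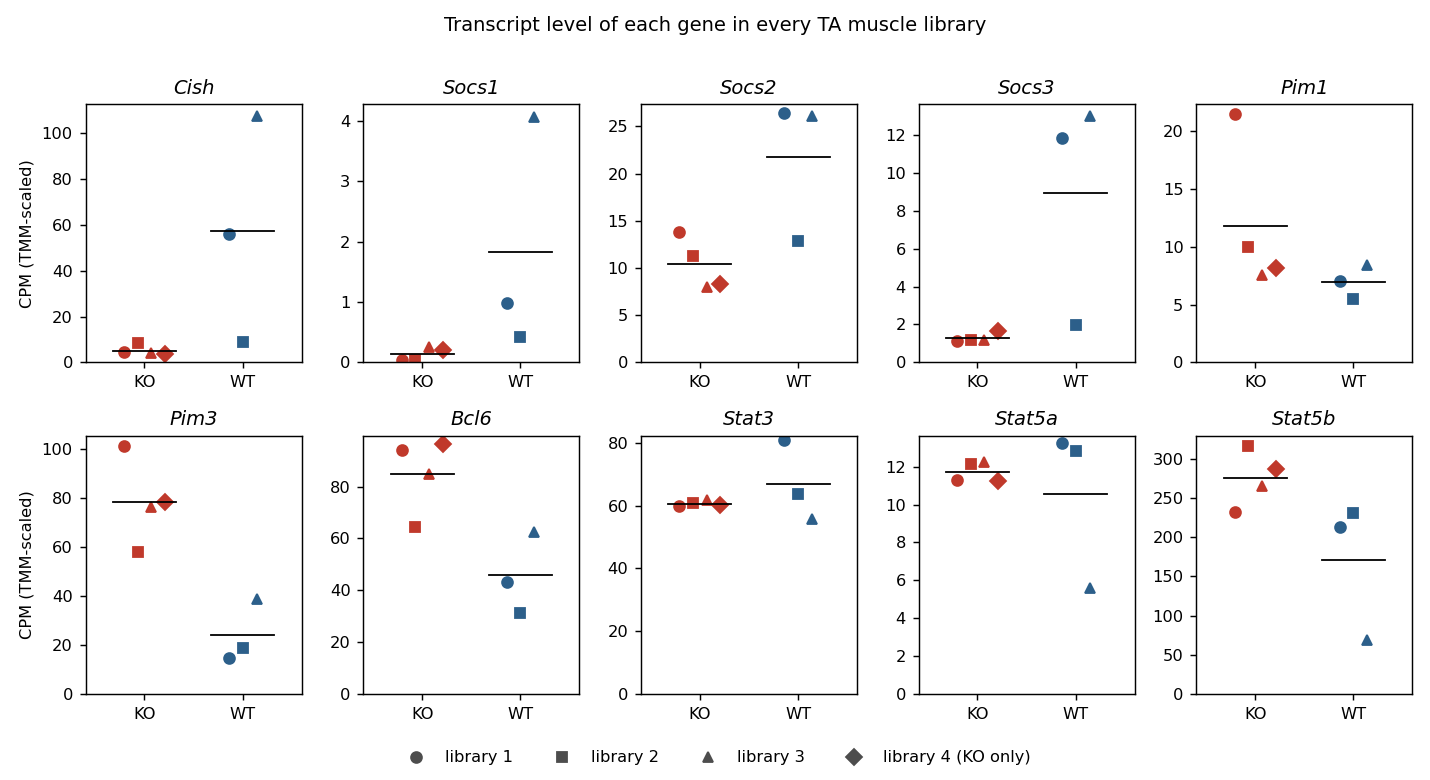
Level of each of the 10 genes in every library, in TMM-scaled CPM on a linear axis from 0, with mir-486 KO left of WT. Each point is a library (the shape gives its number) and the line is the group mean; for Cish, Socs1 and Socs3 the WT 2 square sits just above the KO points, while WT 3 reaches 107 CPM for Cish.

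Cish encodes an SH2-domain protein that binds activated cytokine receptors and competes with STAT5 for docking. It had 4.70, 8.38, 4.00 and 3.54 CPM in KO 1 to KO 4, against 56.0, 8.90 and 107 CPM in WT 1 to WT 3 (125, 211, 107 and 86 reads against 1640, 237 and 2609 reads). The groups did not overlap, but WT 2 exceeded the highest KO library only slightly, whereas WT 1 was 6.29 times and WT 3 12.1 times the level of WT 2. Mean levels were 5.15 ± 2.21 CPM in KO (SD, n = 4) and 57.4 ± 49.2 CPM in WT (SD, n = 3). Fitted by edgeR, the log2 fold change was -3.48 (SE 0.70, 95% interval -5.08 to -1.87), and -2.66 (SE 0.55) without WT 3.

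Socs3 encodes the inhibitor that blocks JAK at gp130 receptors. Its level was 1.13, 1.19, 1.16 and 1.64 CPM in KO libraries, against 11.8, 1.95 and 13.0 CPM in WT libraries, from 30, 30, 31 and 40 reads in KO and 347, 52 and 316 reads in WT. Again WT 2 was the WT library nearest to the KO group, at 1.52 times the KO mean, and the other WT libraries stood at 6.06 and 6.66 times the level of WT 2. On the log2 scale the fold change was -2.80 (SE 0.56, 95% interval -4.07 to -1.52), and -2.44 (SE 0.53) without WT 3.

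Socs1, whose product inhibits JAK kinases downstream of interferons, was the scarcest gene of the set. Only 1, 1, 7 and 5 reads fell on it in KO libraries, against 29, 11 and 99 in WT libraries, or 0.0376, 0.0397, 0.262 and 0.206 CPM in KO against 0.990, 0.413 and 4.07 CPM in WT. The groups did not overlap, and the highest value belonged to WT 3. At such counts the log2 fold change of -3.68 (SE 0.90) had a wide interval of -5.74 to -1.62, and it was -2.34 (SE 0.62) without WT 3.

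Socs2 encodes the inhibitor best known for limiting growth hormone signalling, and mice without it grow large. It was measured at 13.9, 11.3, 7.96 and 8.35 CPM in KO libraries, against 26.4, 12.9 and 26.1 CPM in WT libraries. WT 2 lay below KO 1, so the groups overlapped, and KO 1 and KO 2 were above KO 3 and KO 4. This gave a log2 fold change of -1.07 (SE 0.29, 95% interval -1.72 to -0.42), and -0.92 (SE 0.27) without WT 3.

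Measured per kb of exon, the make-up of the family also differed between libraries. Of the summed level of Cish and Socs1 to Socs7, the share of Cish, Socs1, Socs2 and Socs3 together was 11.9%, 10.9%, 8.01% and 7.89% in KO libraries, against 42.4%, 14.3% and 69.1% in WT libraries. Cish alone took 3.36%, 4.88%, 2.56% and 2.10% in KO, against 23.2%, 5.59% and 45.5% in WT. Socs7, a member less tied to cytokine feedback, took 62.6% to 70.1% in KO libraries, against 42.9%, 62.2% and 18.7% in WT libraries. By this measure too WT 2 was the WT library most like the KO libraries. In CPM, Socs7 was at 99.1, 132, 124 and 133 in KO and at 117, 112 and 49.9 in WT, so part of its smaller share in WT 3 was a lower level of Socs7 in that library.

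**Figure D2:**
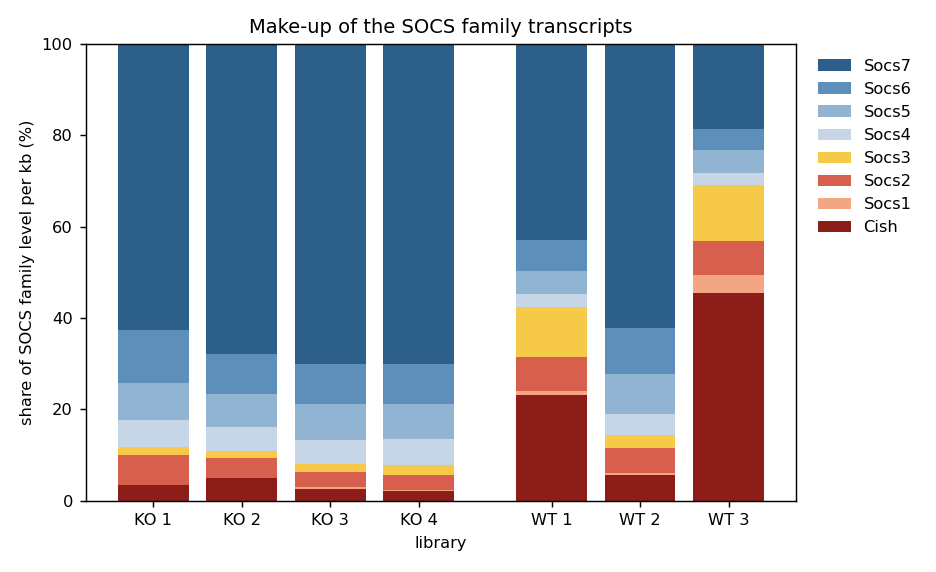
Share of each SOCS family gene in the summed family level per kb of exon (percent of the bar), for 4 KO libraries on the left and 3 WT libraries on the right. Cish (dark red, bottom) takes 2.10% to 4.88% of the bar in KO libraries, against 23.2%, 5.59% and 45.5% in WT 1, WT 2 and WT 3.

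Pim3, a serine/threonine kinase that is active as soon as it is made, had 101, 58.0, 76.3 and 78.6 CPM in KO libraries, against 14.8, 18.8 and 39.0 CPM in WT libraries. Every KO library was above every WT library, and WT 3 was the WT library nearest to them. Mean levels were 78.5 ± 17.7 CPM in KO (SD, n = 4) and 24.2 ± 13.0 CPM in WT (SD, n = 3). The fit put its log2 fold change at 1.70 (SE 0.34, 95% interval 0.91 to 2.48), and 2.23 (SE 0.20) without WT 3. Pim1, a close relative with the same kind of activity, was at 21.5, 10.01, 7.59 and 8.18 CPM in KO, against 7.03, 5.52 and 8.39 CPM in WT. Its groups overlapped, and KO 1 alone lay far above the rest. The log2 fold change of Pim1 was 0.76 (SE 0.37, 95% interval -0.09 to 1.62), and 0.30 without KO 1.

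Bcl6 was at 94.0, 64.6, 85.0 and 96.3 CPM in KO libraries, against 43.4, 31.3 and 62.5 CPM in WT libraries. KO 2 and WT 3 were nearly level, and the groups did not overlap only by that narrow gap. The fitted log2 fold change of Bcl6 was 0.89 (SE 0.24, 95% interval 0.34 to 1.45), and 1.19 (SE 0.18) without WT 3. Its corepressors Bcor and Ncor1 did not pass the test, with log2 fold changes of -0.01 and 0.23 (-0.29 and -0.04 without WT 3).

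Stat3, the transcription factor of the gp130 route and itself a STAT3 target, had 59.9, 60.8, 61.8 and 60.1 CPM in KO libraries, against 81.0, 63.8 and 55.7 CPM in WT libraries. The KO libraries lay within 1.03 times of each other, and the WT libraries fell on both sides of them. Its log2 fold change was -0.14 (SE 0.14, 95% interval -0.46 to 0.18). It was -0.25 (SE 0.09, 95% interval -0.46 to -0.04) without WT 3, and 0.024 without WT 1. Stat5a, a close copy of Stat5b next to it on chromosome 11, was at 11.3, 12.1, 12.3 and 11.3 CPM in KO, against 13.2, 12.8 and 5.596 CPM in WT. Only WT 3 was low, and the log2 fold change of 0.15 (SE 0.26) was -0.15 without it. Stat5b, the STAT through which growth hormone acts, was at 232, 317, 265 and 287 CPM in KO, against 214, 231 and 68.3 CPM in WT. KO 1 and WT 2 were almost level, and WT 3 had 0.296 times the level of WT 2. The log2 fold change of Stat5b was 0.69 (SE 0.37, 95% interval -0.16 to 1.53), and 0.31 (SE 0.12, 95% interval 0.05 to 0.57) without WT 3. So WT 3 combined the highest Cish, Socs1 and Socs3 levels with the lowest Stat5a and Stat5b levels of the 7 libraries. Low levels there were not particular to the STAT5 genes. Socs7, Ghr, Il6st and Jak2 were also lowest in WT 3, and others such as Elob were highest.

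**Figure D3:**
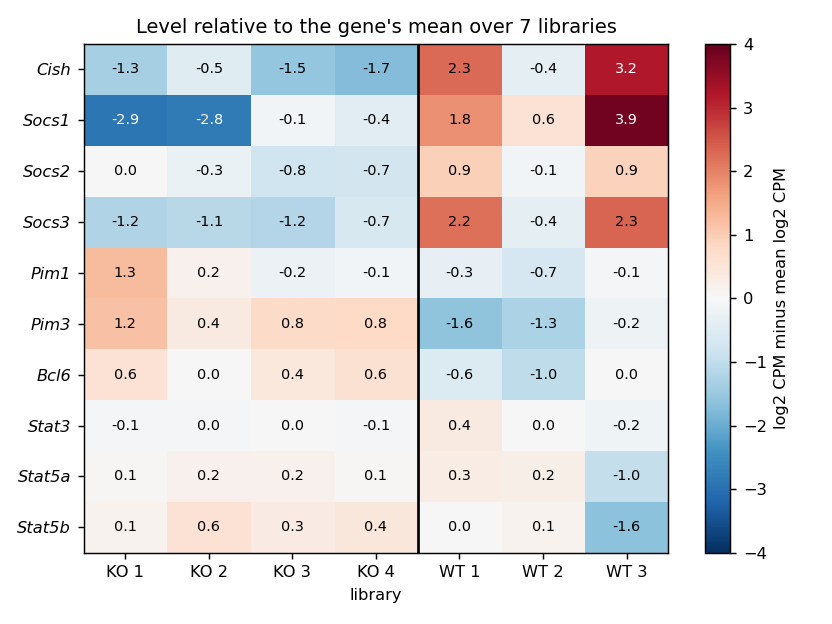
Log2 CPM of each gene (rows) in each library (columns, KO left of WT) minus the gene's mean over the 7 libraries; red is above and blue below that mean. WT 3 shows 3.2 for Cish beside -1.6 for Stat5b, and WT 2 lies at -0.4 for both Cish and Socs3.

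Counted together, 6 of the 10 genes had KO and WT libraries that did not overlap in CPM, Cish, Socs1 and Socs3 below and Pim3, Bcl6 and Stat5b above, where 22.4% of all 14002 tested genes did not overlap. With all libraries, edgeR's quasi-likelihood test with Benjamini-Hochberg adjustment over all 14002 genes called 1 of the 10 higher in KO (Pim3), beside 0.964% of all tested genes, and 2 lower (Cish and Socs3), beside 1.85%. Without WT 3 it called 2 higher (Pim3 and Bcl6), beside 6.15% of 14187 tested genes, and 3 lower (Cish, Socs1 and Socs3), beside 6.55%. As these genes were chosen by results of this contrast, nothing is read from the counts. Leaving out WT 1, or any KO library, left 0 of the 10 called by edgeR, with 6 to 7 of them at an unadjusted p under 0.05. In those fits 1993 to 3218 of 13870 to 14216 tested genes had an unadjusted p under 0.05. Leaving out WT 2 left 3 of the 10 called, all of them lower (Cish, Socs2 and Socs3). Pim3 was not called without WT 2 (edgeR adjusted p = 0.102). The median log2 fold change of the 10 was 0.01, beside -0.02 over all tested genes.

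**Figure D4:**
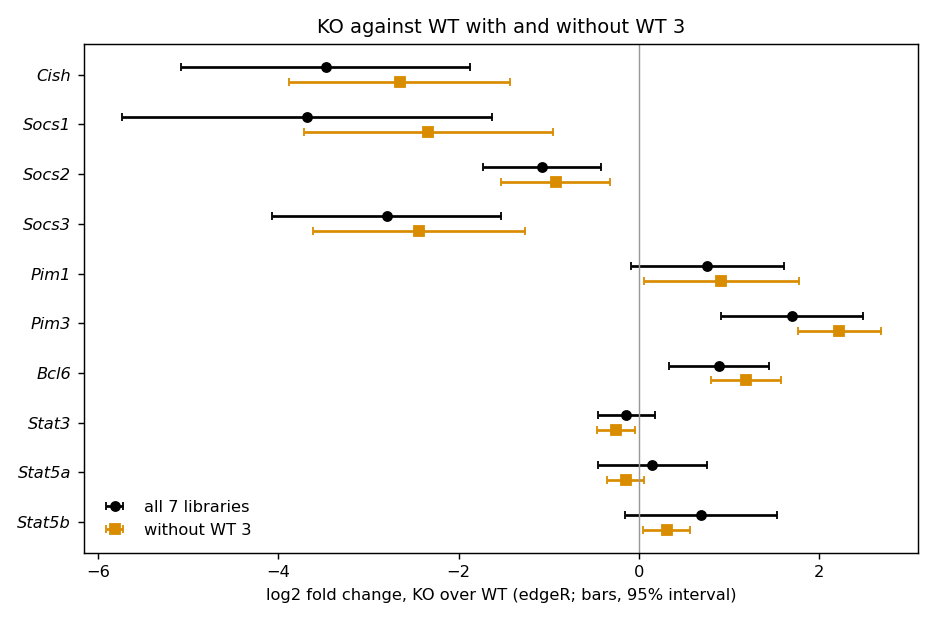
Log2 fold change of mir-486 KO over WT for each gene, from edgeR, with 95% intervals, for all 7 libraries (black circles) and without WT 3 (orange squares). Cish moves to -2.66 from -3.48 when WT 3 is left out, Pim3 moves to 2.23 from 1.70, and Stat5a changes sign.

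Placed in order of level per kb of exon (RPKM, computed here from CPM and exon length), the set ran over a wide range. In KO muscle the order was Stat5b at 49.7, Pim3 at 32.3, Bcl6 at 12.7, Stat3 at 6.36, Pim1 at 3.52, Stat5a at 1.64, Socs2 at 1.09, Cish at 0.803, Socs3 at 0.443 and Socs1 at 0.0468 RPKM. Among these, the neighbours Stat3 and Pim1, Socs2 and Cish, and Cish and Socs3 had overlapping ranges over the KO libraries. In WT muscle Stat5b at 30.9 and Pim3 at 9.98 RPKM again came first, followed by Cish at 8.94, Stat3 at 7.01, Bcl6 at 6.83, Socs3 at 3.09, Socs2 at 2.29, Pim1 at 2.08, Stat5a at 1.48 and Socs1 at 0.628 RPKM. There Bcl6 and Socs3 were the only neighbours whose ranges did not overlap, since the WT libraries spread so widely. Cish ranged over 0.551 to 1.31 RPKM in KO and over 1.39 to 16.7 RPKM in WT libraries.

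The rest of the pathway was read from 10 lists ordered by role, with 90 genes, of which 70 had enough reads to be tested. Igfbp3, which encodes a carrier protein of IGF1, rose, and Igf1, the growth factor made under STAT5b, fell, and no other gene passed the test. In edgeR 21 of the 70 had an unadjusted p under 0.05, beside 2835 of all 14002 tested genes. That share of all genes also stands beside the unadjusted counts of the lists below. Igfbp3 was at 12.9, 13.0, 13.0 and 12.7 CPM in KO, against 6.18, 6.98 and 6.25 CPM in WT, a difference of 0.996 on the log2 scale (SE 0.11) with an edgeR adjusted p = 0.00935. Its libraries were nearly level within each group, WT 3 included. Igf1 was at 5.64, 9.85, 7.66 and 8.59 CPM in KO, against 14.6, 17.2 and 35.3 CPM in WT, a difference of -1.49 on the log2 scale (SE 0.32) with an edgeR adjusted p = 0.0486. The groups did not overlap for either gene. Without WT 3, Igf1 was at -0.998 on the log2 scale (edgeR adjusted p = 0.00588), but it was not called when WT 2 or any KO library was left out (edgeR adjusted p 0.0676 to 0.148). Igfbp3 was not called without KO 3 or without KO 4 (edgeR adjusted p = 0.0591 and 0.0540).

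Most ligands were scarce in the tissue, and Il15 and Ctf1 were exceptions. Il15 was at 17.4, 11.8, 17.3 and 12.1 CPM in KO, against 9.14, 7.77 and 5.14 CPM in WT. Its log2 fold change was 0.99 (edgeR adjusted p = 0.0652), and 0.80 without WT 3 (edgeR adjusted p = 0.0196). Ctf1 was at 5.04 to 6.16 CPM in KO and 3.21 to 6.87 CPM in WT. Of 18 ligand genes 5 could be tested and none passed (3 at an unadjusted p under 0.05). Il6, the interleukin that activates STAT3 in muscle, had 0.150, 0, 0.0747 and 0.123 CPM in KO, against 0.0341, 0.113 and 0.165 CPM in WT, and Lif and Osm of the same family did not exceed 0.338 CPM in any library. Il13, Csf2 and Csf3 had no read, which allows up to 0.102 to 0.123 CPM per library, counting error only. Growth hormone and prolactin genes were not in the lists.

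None of the 19 tested receptor genes of 24 passed, with 9 at an unadjusted p under 0.05. Ghr, the growth hormone receptor, was at 162, 169, 153 and 166 CPM in KO, against 135, 122 and 62.2 CPM in WT (0.61 on the log2 scale, SE 0.24, adjusted p = 0.209 by edgeR). Il6ra, the binding chain for interleukin-6, was at 5.30, 8.03, 8.67 and 8.02 CPM in KO, against 4.78, 3.72 and 2.47 CPM in WT (1.03 on the log2 scale, SE 0.26, adjusted p = 0.0718 by edgeR). For both receptors all KO libraries were above all WT libraries, and without WT 3 both passed in edgeR, Ghr at 0.35 on the log2 scale (adjusted p = 0.0201) and Il6ra at 0.82 (adjusted p = 0.0286). The shared chain Il6st (gp130) had a log2 fold change of 0.09, Lifr of 0.29 and Osmr of -0.05, with edgeR adjusted p between 0.234 and 0.888, and the sign of Il6st and of Osmr turned without WT 3.

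All 4 JAK genes were tested and none passed, with Jak1 at a log2 fold change of -0.09 (0.10 without WT 2) and Jak2, the kinase of the growth hormone receptor, at -0.18 (-0.40 without WT 3). The same held for 3 tested STAT genes outside the set, for Socs4 to Socs7, for the 4 partners that build the SOCS box ubiquitin ligase (Cul5, Rnf7, Elob and Eloc), for 11 further inhibitors such as the PIAS proteins and phosphatases, and for 12 tested STAT3 targets. Medians of these lists lay between -0.34 (other STATs) and 0.20 (Socs4 to Socs7) on the log2 scale. Without WT 3, 10 of 69 tested pathway genes rose, beside 6.15% of all tested genes, and 5 fell, beside 6.55%.

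Among those 15 were Bcl2l1, Cebpb, Cebpd and Gadd45g, picked out after their values were seen because WT 3 lay within or above the KO range in each. Cebpb, a transcription factor of the acute-phase response, was at 14.9, 9.34, 9.34 and 11.8 CPM in KO, against 2.46, 2.59 and 12.5 CPM in WT. Gadd45g, a stress-inducible gene, was at 149, 116, 128 and 137 CPM in KO, against 13.7, 16.7 and 175 CPM in WT. So WT 3 sided with WT 1 for the SOCS genes and with the KO libraries for Bcl2l1, Cebpb, Cebpd and Gadd45g. Timp1, a STAT3 target also among the 15, was lower in KO muscle and highest in WT 3. It was at 0.113, 0.199, 0.299 and 0.288 CPM in KO, against 1.06, 0.751 and 7.53 CPM in WT. Its log2 fold change was -3.75 with all libraries (edgeR adjusted p = 0.0650), and -1.99 without WT 3 (edgeR adjusted p = 0.00946).

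**Figure D5:**
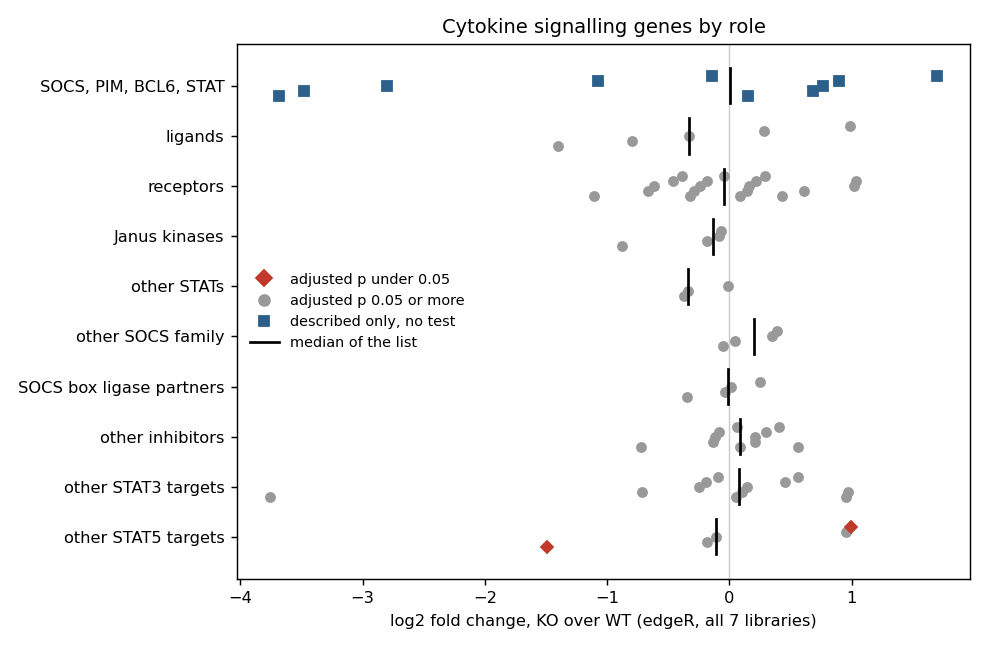
Log2 fold change of mir-486 KO over WT from all 7 libraries for the tested genes of the roles shown; red diamonds passed the test, grey circles did not, blue squares are the 10 described genes and the black bar is the list median. Igfbp3 at 0.996 and Igf1 at -1.49 are the only red points.

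Genes of other cell types and of the state of the tissue were read beside these results. Over the WT libraries, liver markers ran in the same order as Cish, Socs1 and Socs3. Alb, the plasma protein albumin, was at 0.0752, 0.0795, 0.0374 and 1.15 CPM in KO, against 11.8, 1.502 and 29.4 CPM in WT (-5.43 on the log2 scale, SE 1.14, adjusted p = 0.0465 by edgeR). Within KO muscle this order did not hold, as Alb was highest in KO 4, where Cish was lowest. Alb was also near the floor in the other KO libraries. Alb was the single liver marker of 6 with enough reads to be tested, and the 6 summed to 0.0374 to 1.604 CPM in KO and to 18.1, 1.95 and 38.3 CPM in WT 1, WT 2 and WT 3. Fibro-adipogenic markers summed to 344 to 516 CPM in KO and 755 to 813 CPM in WT, with 2 of 5 fallen (Col1a1 and Col3a1). Dcn and Pdgfra did not pass, with log2 fold changes of 0.34 and 0.06 (0.16 and -0.11 without WT 3). Lum was not called with all libraries but was called lower without WT 3. Endothelial markers summed to 189 to 216 CPM in KO and 239 to 311 CPM in WT, with 1 of 5 fallen (Kdr). With WT 3 left out, 4 of the 5 were called lower (Cdh5, Kdr, Tek and Cldn5), beside 6.55% of all tested genes. Myeloid markers summed to 38.5 to 69.5 CPM in KO and to 58.8, 48.0 and 97.1 CPM in WT 1, WT 2 and WT 3, with 1 of 8 tested fallen (S100a9, at or below 0.150 CPM in KO). Cd68 was at 22.8 CPM in WT 3, against 2.46 and 2.82 CPM in WT 1 and WT 2, whereas Adgre1 was lowest in WT 3. The log2 fold change of Cd68 was -2.45 (edgeR adjusted p = 0.133), and -0.63 without WT 3 (edgeR adjusted p = 0.165). The lymphocyte genes Cd3e, Cd4, Cd8a, Cd79a and Nkg7 did not exceed 0.710 CPM in any KO library or 0.171 CPM in any WT library, and none had enough reads to be tested. Adipocyte markers summed to 2.63 to 6.09 CPM in KO and 0.826 to 7.95 CPM in WT, and erythroid markers to 64.1 to 151 CPM in KO and 125 to 153 CPM in WT, with none passing. Of 12 immediate early genes, which respond within minutes to a stimulus, Dusp1 rose and Egr1 fell, and the 12 summed to 583 to 793 CPM in KO and to 230, 270 and 671 CPM in WT 1, WT 2 and WT 3. With WT 3 left out, 4 of the 12 were called higher, beside 6.15% of all tested genes, and 1 lower, beside 6.55%. Of these 7 calls made with all libraries, Col1a1 alone held whichever library was left out. Alb was not called when WT 1 or any 1 of the KO libraries was left out (edgeR adjusted p 0.0707 to 0.147). The part of these cell types and states in the levels of the SOCS genes was not tested.

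Genes whose log2 CPM ran most like that of Cish, Socs3 and Pim3 over the 7 libraries were taken from 12467 tested genes with a name, as a description in which WT 3 weighs heavily. For Cish they were Prrc1 (Pearson r = 0.999), Sbno2 (0.974) and Tmem9b (0.974). Prrc1 was at 31.95, 34.2, 30.3 and 29.7 CPM in KO, against 45.6, 34.8 and 50.5 CPM in WT, the order of Cish at a far smaller range. For Socs3 they were Osgin1 (0.970), Sod3 (0.969) and Ikzf4 (0.968). Ikzf4, a zinc finger factor of the Ikaros family, was at 0.414, 0.278, 0.561 and 0.370 CPM in KO, against 3.41, 0.451 and 3.25 CPM in WT. For Pim3 they were Cdkn1a (0.992), Tob2 (0.991) and Col17a1 (0.991). Cdkn1a, the cell cycle inhibitor p21, was at 24.4, 19.6, 23.4 and 22.2 CPM in KO, against 4.91, 6.05 and 11.6 CPM in WT. Inside the set, Socs3 ranked 13 and Socs2 39 of 12467 in likeness to Cish, and Bcl6 ranked 101 in likeness to Pim3. Cish and Stat5b ran opposite (r = -0.80), but Stat5b ranked 11569 of 12467, so many other genes ran more opposite to Cish.

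The transcripts of the set also differ in 3′ UTR words that bear on decay. The word TATTTAT, the core of AU-rich elements that shorten mRNA life, occurred in the longest annotated 3′ UTR of Cish (3 times), Pim1 (4 times), Socs2, Socs3 and Pim3 (2 times each) and Stat5b (1 time), and in 30.1% of 12566 tested genes. Words of ATTTA were densest in Pim3, at 5.19 per kb, above 95.7% of those genes, against a median of 1.21. The 7-base match to the seed of miR-486-5p, GTACAGG, occurred 1 time each in Socs2, Pim1 and Stat5b, and in 8.48% of those genes. The 3 genes with the match had log2 fold changes of -1.07, 0.76 and 0.69, with both signs among them, and Cish, Socs3 and Pim3 had no match.

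Some of the counts could hold reads of neighbours or copies. Cish (chr9:107296026-107302784, plus strand, exons of 6419 bases, GRCm38) overlaps the unnamed opposite-strand models Gm17040 and Gm17041 over 740 exon bases, or 11.5% of its exons. The longest transcript of Cish also shared 13.2% of its 50-base words with many other genes. Pim1 (chr17:29490753-29496112, plus strand) overlaps Gm26885 over 488 bases. Stat3 (chr11:100885098-100939540, minus strand) and Stat5a (chr11:100859351-100885169, plus strand) share 72 exon bases at their ends, and 10.8% of the 50-base words of Stat5a also occur in Stat5b (chr11:100780731-100850724, minus strand). The methods name a stranded library kit, but the strand setting used to make this count table was not stated, so reads of opposite-strand partners may not have been kept apart. Socs2 (chr10:95385362-95417180, minus strand) shared 7.23% of its 50-base words with the unnamed models Gm8000 and Gm9847, and Bcl6 (chr16:23965052-23988852, minus strand) none. Socs1 (chr16:10782240-10785536), Socs3 (chr11:117966079-117970047), and Pim3 (chr15:88862186-88865726) shared no exon base and no 50-base word with another gene.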

How the data were processed

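RNA was measured in TA muscle of 4 mir-486 KO and 3 WT samples, grouped and numbered by sample title. The table deposited by the authors holds raw counts per Ensembl gene with no normalization (48800 rows, 5 of them HTSeq summary rows that entered neither library sizes nor tests). Reads without a unique alignment made up 24.4% to 34.3% of the table, those on no feature 3.25% to 4.34%, and ambiguous ones 4.04% to 4.44%. The submitters' processing notes name HTSeq 0.6.1, STAR 2.5.2b, CASAVA 1.8.2 and Trim Galore 0.4.2, whereas the methods describe a stranded kit, another extraction kit, more WT animals and Salmon run in a stranded mode on a GENCODE M21 (mm10) transcriptome. For the HTSeq table itself, genome build, annotation and strand setting were not given in the sources used here. Of 48795 genes, 48435 were matched by ID to GENCODE M21 (GRCm38) for symbols, positions, exon lengths and 3′ UTRs. No pair of libraries of the same group agreed within sampling noise by a chi-square test of counts.

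Genotype was fitted to the counts with edgeR 4.0.16 in R 4.3.3 by its quasi-likelihood functions, after TMM scaling and filterByExpr (minimum count 10). P-values were adjusted by Benjamini-Hochberg over 14002 genes, calls were made below 0.05, and the steps were tested on simulated data. The SE is the absolute log2 fold change over the root of the F statistic, and intervals are 95%. CPM is TMM-scaled, and RPKM is CPM per kb of exon. Alternatives were RLE factors, library size only, no filter, DESeq2 1.42.0, a 2-fold minimum, a replicate block and each library left out.

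The members and lists were chosen with earlier results of these data known. Genes named are all 10 members; of the pathway lists, those past the threshold and Ghr, Il6ra, Il6st, Lifr, Osmr, Jak1, Jak2 and Igf1; and the 3 named genes most correlated with Cish, Socs3 and Pim3, leaving out unnamed models and pseudogenes. Marker and immediate early lists are given by counts and summed CPM, with Cdh5, Tek, Cldn5, Cd68, Adgre1, Dcn, Pdgfra and Lum also named. The exception is the lymphoid list, given by the highest values of 5 genes. Further list genes (Bcor, Ncor1, Socs7, Il6, Lif, Osm, Il13, Il15, Ctf1, Csf2, Csf3, Bcl2l1, Cebpb, Cebpd, Timp1 and Gadd45g) stand outside this rule and were named after their values were seen. Some genes of the lists are not reported here.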

Additional observations from a re-analysis of the deposited data

Results flagged for a closer look

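Socs3 in KO 4 was at 1.64 CPM, set apart from 1.13 to 1.19 CPM in the other 3 KO libraries by a gap of 0.875 of the group's range, above the critical value of Dixon's test for 4 samples. The 10 genes and the 9 pathway genes named by rule were each checked in the KO group (19 groups in all), the WT group being too small, and chance flags about 1 in 20 groups. That Socs3 value was still below all WT libraries, of which the lowest is WT 2 at 1.95 CPM. Pim1 in KO 1, at 21.5 CPM, came just under the critical value with 0.826. Jak1 was low in KO 1 by the same test, at 156 CPM, against 190, 196 and 192 CPM in KO 2 to KO 4, while WT libraries had 198, 241 and 146 CPM.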

How the results depend on the processing

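The 10 genes kept their direction under all 12 other fits except Stat3 (0.024 without WT replicate 1) and Stat5a (-0.15 without WT replicate 3), whose log2 fold changes ranged over -0.25 to 0.024 and -0.15 to 0.35 with a library left out. Of the other named genes, Il6st (-0.23 to 0.36), Osmr (-0.16 to 0.028) and Jak1 (-0.25 to 0.10) changed sign with a library left out, and none of the 3 was called under any fit. The log2 fold change ranged from -3.97 to -2.66 for Cish, -4.22 to -2.34 for Socs1, -3.26 to -2.44 for Socs3, 1.44 to 2.23 for Pim3 and 0.70 to 1.19 for Bcl6. Calls moved far more. Against 394 genes, 3 of the 10 and 2 pathway genes called, DESeq2 called 1006, 6 and 7, no filter on low counts called 6 of the 10 and 6 pathway genes, and a minimum fold of 2 left 235 genes and 1 pathway gene. With the replicate block edgeR called 0 genes, 0 of the 10 and 0 pathway genes, with 1568 genes at an unadjusted p under 0.05. Whether the numbers pair the samples could not be decided. Correlations of same-numbered deviations from the group mean were -0.31, 0.26 and -0.12. Such deviations within a group sum to 0 and so are tied to each other. Leaving out each library in turn gave 20 to 1802 genes, 0 to 5 of the 10 and 0 to 15 pathway genes, the highest each without WT 3 (without WT 3, 873 genes rose and 929 fell). The cause was not tested. Scaling moved the median of all genes by less than 0.1 on the log2 scale. Depth limits Socs1 most, with 14 reads over the KO libraries.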
